A study of Mus musculus with 42 samples.

Results

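The dependence of the hepatic response to resolvin E1 (RvE1) on its receptor ChemR23 was measured as a difference of differences in the livers of obese mice. For each gene, the RvE1 effect in knockout (KO) liver minus the RvE1 effect in wildtype (WT) liver was taken on the log2(normalized count + 1) scale. This difference is called the interaction, and the mean of the 2 genotypes' effects is called the average effect. Livers of 28 of the 42 mice of the study entered, 7 in each of 4 groups, with 1 library per mouse, for which the labels give polyA RNA as the molecule but a total RNA kit for the library. Of the 13085 genes listed in the WT table and the 14460 listed in the KO table, 13061 were in both, and 13059 of these had a mean normalized count of at least 5 in each table and were tested. All mice were C57BL/6J males on a high fat diet with 60% of its energy as fat. The WT obese and KO obese groups received the ethanol and PBS vehicle by intraperitoneal injection, and the WT obese+RvE1 and KO obese+RvE1 groups received 300 ng RvE1 by the same route. The KO mice were made by CRISPR/Cas9 genome editing and the WT mice were littermates, with the edited bases and the ages not given in the labels.

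RvE1 is a lipid mediator made from the omega-3 fatty acid eicosapentaenoic acid, and it belongs to the specialized pro-resolving mediators, which help to end inflammation. ChemR23 is a G protein-coupled receptor encoded by Cmklr1 that binds RvE1 and the adipokine chemerin, and it is known from macrophages, dendritic cells, natural killer cells and endothelium rather than from hepatocytes. RvE1 also binds BLT1, the leukotriene B4 receptor encoded by Ltb4r1, on which it acts as a partial agonist. Because whole liver was sequenced, fewer cells of a type and less RNA per cell cannot be told apart in any value below.

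The genotype labels were checked first. Cmklr1 had normalized counts of 35.3, 54.9 and 109 (lowest, median and highest of 7 mice) in WT obese liver and of 46.1, 64.5 and 148 in WT obese+RvE1 liver. In the KO table, which was normalized separately, the values were 5.33, 14.8 and 24.3 with vehicle and 6.77, 12.4 and 16.3 with RvE1. Every KO liver was below every WT liver. Wscd2, which the study names beside Cmklr1 among the genes that set the genotypes apart, was listed in the KO table, where it ran from 3.97 to 24.3 with vehicle and from 5.41 to 25.4 with RvE1.

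Libraries held 15957561 to 43745360 recovered reads, with group medians between 21818444 and 31059658. No pair of libraries within a group was alike enough to be a repeated deposit. Hepatocyte markers dominated each liver, 9 of the 10 listed, and their summed normalized count was at least 1106000 in every mouse. Each mouse carries an identifier that opens with a number, and the labels do not say what the number means. The 28 mice share 10 such numbers, and mice of 1 number varied together, with a correlation of 0.24 within a number. In WT liver the numbers 22, 27 and 6 were given vehicle and the numbers 30 and 7 were given RvE1, so the RvE1 effect and the number cannot be told apart there. In KO liver only the number 23 was in both treatments, with 1 vehicle and 2 RvE1 mice.

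Across all genes, the RvE1 effects of the genotypes were alike in direction more often than not. They had the same sign for 62.9% of the 13059 genes, with Pearson's r of 0.40 and Spearman's rho of 0.36 across genes, which are not independent replicates and share libraries. In WT liver 653 genes (5.00%) had an unadjusted p under 0.05 for RvE1, 264 higher (2.02%) and 389 lower (2.98%), and 521 of them (79.8%) had the same sign in KO liver. The median size of the log2 effect of those 653 genes was 0.38 in WT liver and 0.15, in the same direction, in KO liver. In KO liver 1381 genes (10.6%) had an unadjusted p under 0.05, 618 higher (4.73%) and 763 lower (5.84%), and 1112 of them (80.5%) had the same sign in WT liver, with a median size of 0.38 log2 in KO and of 0.12, in the same direction, in WT liver. With the identifier number as a block the unadjusted counts were 206 in WT and 934 in KO liver, and with library quality weights 1380 and 2689. In WT obese+RvE1 liver these weights followed the number, at 2.07 to 2.71 for number 7 and 0.56 to 0.73 for number 30. Without number 31 the KO count was 264. No gene passed an adjusted p of 0.1 in limma in WT liver alone or in KO liver alone (0 genes, 0.00%, in each), while DESeq2 called 0 in WT and 10 in KO liver and edgeR called 0 in both. DESeq2 was fitted here to all 4 groups together, on the genes tested. The study's own DESeq2 analysis reported genes under the same adjusted p in each genotype. It names Myc, Smad9, Fgf21 and Fndc1 in WT liver and Foxq1, Cish and Cxcl1 among those in KO liver.

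**Figure D1:**
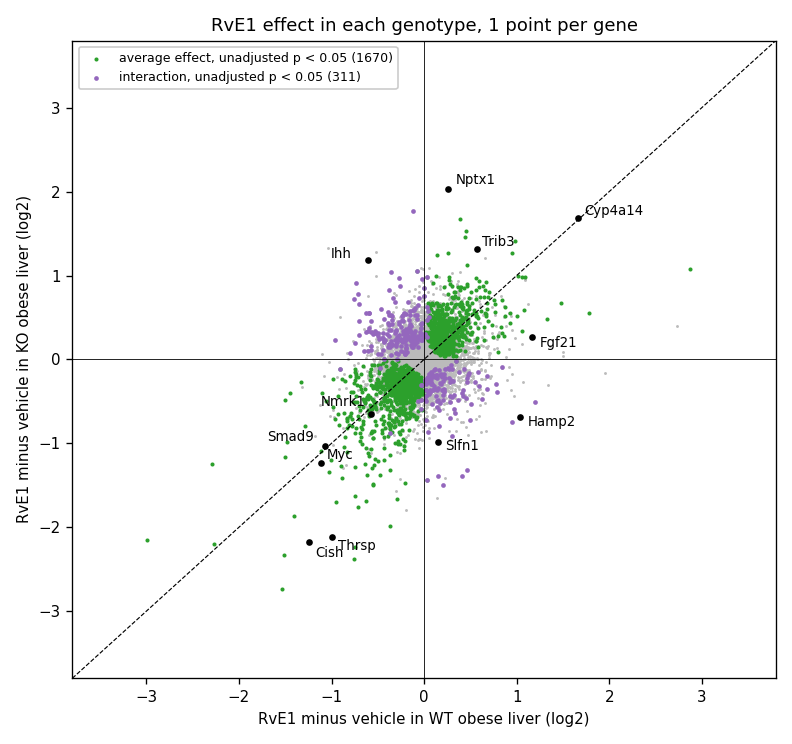
Each of the 13059 genes tested is 1 point, with the log2 RvE1 minus vehicle effect in WT obese liver on the horizontal axis and in KO obese liver on the vertical axis. Green points are the 1670 genes with an unadjusted p under 0.05 for the average effect and lie along the dashed line of equal effects, and purple points are the 311 genes with an unadjusted p under 0.05 for the interaction and lie mostly off it.

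The interaction, which asks whether a response to RvE1 depends on ChemR23, gave no gene at an adjusted p under 0.1. limma with Benjamini-Hochberg adjustment called 0 of 13059 genes (0.00%), with a smallest adjusted p of 0.977, and 311 genes (2.38%) had an unadjusted p under 0.05, 193 (1.48%) higher in KO and 118 (0.904%) lower. edgeR called 0 genes with 359 at an unadjusted p under 0.05, and DESeq2 called 0 with 388. The unadjusted count was 108 when the identifier number was a block and 1202 with library quality weights, with 0 genes called in each. The precision was moderate. The median half-width of the 95% interval of the interaction was 0.48 on the log2 scale, and for 10373 genes (79.4%) the whole interval lay between -1 and 1. Of the 311 genes, 293 had effects of opposite sign in the genotypes. The interaction picks out genes whose effects differ, so their opposite signs are not counted as evidence.

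The genes that led the interaction in each direction are given by their values, since none passed the test. Disp2, a relative of the transporter that releases lipid-modified hedgehog proteins, had normalized counts of 88.7, 102 and 123 in WT obese and 47.8, 83.5 and 95 in WT obese+RvE1 liver. In KO liver they were 53.6, 72.1 and 90.8 with vehicle and 58.2, 92.0 and 107 with RvE1. 6 WT RvE1 mice were below every WT vehicle mouse, and 5 KO RvE1 mice were above every KO vehicle mouse. The interaction for Disp2 was 0.75 log2 (95% interval 0.32 to 1.19, unadjusted p = 0.00141).

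Ihh, the hedgehog ligand Indian hedgehog, ran from 23.5 to 92.9 (median 45) in WT obese and from 16.0 to 57.2 (median 28.2) in WT obese+RvE1 liver. In KO liver it ran from 8.89 to 68.0 (median 15.4) with vehicle and from 32.4 to 61.4 (median 47.0) with RvE1. The treatment groups overlapped in both genotypes. Ihh was also split by number. KO vehicle mice were at 21.6 to 68.0 in number 10, 8.97 to 15.4 in number 31 and 8.89 in number 23. WT RvE1 mice were at 16.0 to 23.4 in number 30 and 28.2 to 57.2 in number 7. Its effects were -0.61 log2 in WT and 1.18 in KO liver, and the interaction was 1.79 (0.71 to 2.88, unadjusted p = 0.00209).

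Ndufaf3, an assembly factor of respiratory complex I, had a median of 198 with vehicle and 186 with RvE1 in WT liver, within 153 to 255. In KO liver the range was 120.5 to 173 with vehicle and 147 to 230.0 with RvE1, and 6 of 7 RvE1 mice were above every vehicle mouse. The interaction was 0.54 log2 (0.22 to 0.85, unadjusted p = 0.00168). Fkbp11, a prolyl isomerase of the secretory pathway, had effects of -0.63 log2 in WT and 0.55 in KO liver, with an interaction of 1.18 (0.43 to 1.93). Fbxl12, the substrate-binding subunit of a ubiquitin ligase, had effects of -0.44 and 0.11. Hist1h1e, a linker histone whose reads may be divided among near-identical histone genes and is therefore uncertain, had effects of 0.04 and 0.98. The remaining 4 of the 10 leading genes were gene models without an established role, and the one with the smallest p had an interaction of 1.49 log2 (4933406I18Rik, unadjusted p = 7.48e-05).

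In the other direction, RvE1 effects were positive in WT and negative in KO liver for each of the 10 leading genes. These genes were picked for a negative interaction, so their signs are not counted as evidence either. Gk2, a glycerol kinase best known from testis, ran from 81.1 to 155 (median 96.5) in WT obese and from 119 to 164 (median 132) in WT obese+RvE1 liver. The KO livers ran from 99.6 to 181 (median 114) with vehicle and from 68.5 to 120.4 (median 94.2) with RvE1. The groups overlapped in both genotypes, and the interaction was -0.79 log2 (-1.24 to -0.33, unadjusted p = 0.0014).

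Slfn1, a Schlafen family gene linked to T cell quiescence, had a median of 17.6 with vehicle and 18.8 with RvE1 in WT liver. In KO liver it ran from 14.4 to 37.4 (median 25.5) with vehicle and from 6.95 to 26.3 (median 12.2) with RvE1, where 6 of 7 RvE1 mice were below every vehicle mouse. Its interaction was -1.13 log2 (-1.82 to -0.44). Rdh19, a retinol dehydrogenase, had a median of 26.4 against 38.3 in WT and of 32.5 against 20.3 in KO liver, vehicle first. The interaction for Rdh19 was -1.11 log2 (-1.79 to -0.43), and 4 WT RvE1 mice were above, and 4 KO RvE1 mice below, every vehicle mouse of their genotype.

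Npr3, the natriuretic peptide clearance receptor, had effects of 0.46 log2 in WT and -0.23 in KO liver (interaction -0.69, -1.15 to -0.23). Clec4n, the myeloid C-type lectin dectin-2, had effects of 0.68 and -0.35 (interaction -1.02, -1.78 to -0.27). Pcp4l1, a small calmodulin-binding protein, had effects of 0.46 and -0.46. Nup62, a protein of the nuclear pore channel, had effects of 0.30 and -0.45, and its annotated span overlaps that of Atf5 on the other strand, so that the reads of the 2 genes may not be fully told apart. No adjusted p among the leading genes was under 0.977 in either direction.

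**Figure D2:**
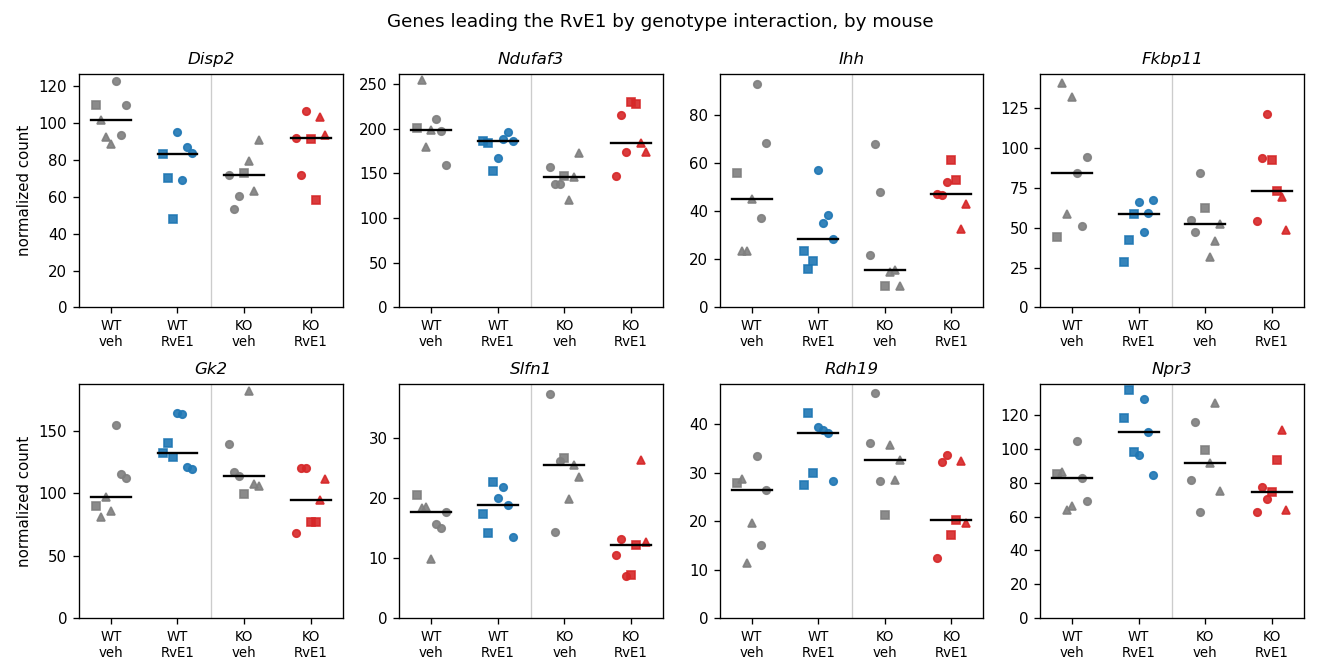
Normalized counts of 8 genes that led the interaction, 1 point per mouse, with WT and KO vehicle mice in grey, WT RvE1 mice in blue, KO RvE1 mice in red, and a bar at the median of 7 mice. Point shapes mark the identifier number within a group. For Slfn1, 6 of 7 KO RvE1 mice lie below every KO vehicle mouse, while the WT groups lie together.

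The interaction count was 0 in every alternative that kept all identifier numbers, including the removal of each mouse in turn. In settings added after the data had been seen, it was 2 without the mice of number 10 (Ihh and Sectm1a) and 1 without number 7 (Hamp2). Hamp2, a near-identical neighbour of the iron hormone gene Hamp, was split by number. Its normalized count was 1379 to 2063 in the 3 WT obese+RvE1 mice of number 30 and 47.5 to 303.5 in the 4 mice of number 7. The WT obese mice ran from 133 to 377. Reads of Hamp2 and Hamp may be divided between the copies, and its level is uncertain for that reason. Of 13059 genes, 8 (0.0613%) had every WT RvE1 mouse below every WT vehicle mouse and 6 (0.0459%) above. In KO liver the counts were 0 and 2 (0.0153%), and no gene was separated in both genotypes.

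Genes that the study discusses for RvE1 were examined one by one, since the width of each interval says how large a ChemR23 dependence these 28 livers could still hold. Smad9, which encodes a SMAD of bone morphogenetic protein signalling, had normalized counts of 182, 209 and 443 in WT obese and 69.3, 130.0 and 188 in WT obese+RvE1 liver. In KO liver they were 151, 269 and 489 with vehicle and 67.2, 145 and 247 with RvE1. 6 WT and 4 KO RvE1 mice were below every vehicle mouse of their genotype. The log2 effects were -1.08 in WT and -1.03 in KO liver (SE 0.30 in each), so the interaction was 0.05 with an interval from -0.82 to 0.91.

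Myc, the proto-oncogene that drives growth and ribosome synthesis, ran from 98.5 to 559 (median 215) in WT obese and from 61.1 to 162 (median 96.5) in WT obese+RvE1 liver. KO livers ranged from 95 to 723 (median 162) with vehicle and from 40.6 to 188 (median 84.5) with RvE1. 4 RvE1 mice in each genotype were below every vehicle mouse. The effects were -1.12 and -1.23 log2, and the interaction was -0.12 with an interval from -1.39 to 1.16. For Smad9 and Myc alike the sign of the interaction turned in several settings.

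Cish, a STAT5-induced inhibitor of cytokine receptors, had effects of -1.24 log2 in WT and -2.18 in KO liver, with an interaction of -0.94 (-2.66 to 0.78). Foxq1, a forkhead transcription factor, had effects of -0.88 and -1.41 (interaction -0.52, -1.70 to 0.65). Cxcl1, a neutrophil-attracting chemokine, had effects of -0.95 and -1.70 (interaction -0.75, -2.77 to 1.27). Among KO vehicle mice Cxcl1 was 333 to 577 in the 3 mice of number 10 and 2281 to 7257 in the other 4, and all KO RvE1 mice were between 271 and 802. Among WT vehicle mice it was 257 to 522.5 in number 6, 358.5 to 5637 in number 27 and 4553 in number 22. The WT RvE1 mice were at 204 to 744 in number 7 and 372 to 886 in number 30. The WT medians were 522.5 with vehicle and 474.5 with RvE1. Each of these genes had a negative effect in both genotypes, with intervals wide enough to hold a difference of more than 1 log2 unit.

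Fgf21, a hepatic hormone of fasting and nutrient stress, had a positive effect in both genotypes. Its normalized counts were 98.5, 129.8 and 233 in WT obese and 191, 294 and 630.4 in WT obese+RvE1 liver, against 98.5, 265 and 306 in KO obese and 119, 292 and 508 in KO obese+RvE1 liver. 5 WT RvE1 mice and 2 KO RvE1 mice were above every vehicle mouse of their genotype. The effects were 1.17 log2 in WT and 0.27 in KO liver, and the interaction of -0.90 had an interval from -1.75 to -0.05 (unadjusted p = 0.0393). With the identifier number as a block its unadjusted p = 0.0571, and WT obese+RvE1 mice were split by number, at 191 to 242 for number 30 and 294 to 630.4 for number 7.

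Of the next genes, Nptx1, Pde6c and Bbc3 had larger effects in KO than in WT liver, while Fndc1 went the other way. Nptx1, a neuronal pentraxin, was low in count, at 2.93, 14.3 and 30.9 in WT obese and 4.70, 16.3 and 37.2 in WT obese+RvE1 liver. In KO liver the values were 1.32, 8.53 and 15.2 with vehicle and 7.33, 25.5 and 88.0 with RvE1, and 5 of 7 RvE1 mice were above every vehicle mouse. Its effects were 0.26 and 2.04 log2 (interaction 1.77, 0.14 to 3.41, unadjusted p = 0.0345, and 0.0611 with the block).

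Pde6c, a phosphodiesterase of cone photoreceptors, had effects of -0.03 and 1.09 log2, and Bbc3, the apoptosis gene PUMA, had effects of 0.04 and 0.68. Both intervals of the interaction included 0 (-0.08 to 2.31 and -0.06 to 1.33). Fndc1, a fibronectin domain protein, had a mean under 5 in the KO table and was fitted only without the filter on low counts. It ran from 2.20 to 8.35 in WT obese and from 4.70 to 44.3 in WT obese+RvE1 liver, where 5 of 7 mice were above every vehicle mouse, and from 0 to 8.89 over both KO groups. Its interaction without the filter was -2.04 log2 (unadjusted p = 0.0117, adjusted p = 1.00 in limma).

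The other receptor and the enzymes of leukotriene B4 synthesis had no interaction past the test. Ltb4r1 ran from 24.9 to 60.2 (median 27.5) in WT obese, from 14.1 to 37.1 (median 25.4) in WT obese+RvE1, from 10.6 to 33.8 (median 27.3) in KO obese and from 15.4 to 30.7 (median 25.4) in KO obese+RvE1 liver. The 4 groups overlapped, and the interaction was 0.27 log2 (-0.44 to 0.98). Lta4h, the hydrolase that makes leukotriene B4, had an interaction of 0.08 (-0.19 to 0.36), and Alox5ap, the 5-lipoxygenase activating protein, one of -0.30 (-1.15 to 0.54). Alox5 was listed in the KO table, at 2.40 to 12.4 with vehicle and 1.54 to 8.11 with RvE1. Of the 21 genes of chemerin, RvE1 and leukotriene B4 handling, 15 were tested and none had an unadjusted p under 0.05 for the interaction or the average effect. Chemerin itself (Rarres2) had effects of 0.10 log2 in WT and -0.07 in KO liver.

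**Figure D3:**
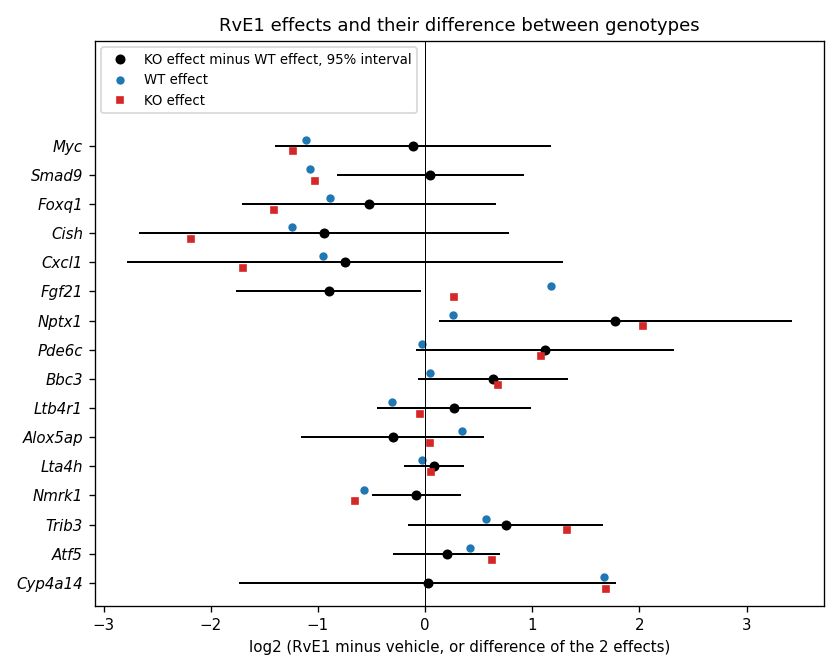
Log2 RvE1 effects in WT liver (blue circles) and KO liver (red squares), and their difference, KO minus WT, with its 95% interval (black). Shown are 12 genes named for RvE1 by the study and 4 genes with effects of the same sign in both genotypes. The intervals of Fgf21 and Nptx1 leave out 0 without adjustment, and the interval of Cxcl1 runs from -2.77 to 1.27.

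The average effect, which asks what RvE1 did with and without ChemR23, passed the test for a single gene. limma called 1 of 13059 genes (0.00766%) at an adjusted p under 0.1, and 1670 genes (12.8%) had an unadjusted p under 0.05, of which 712 (5.45%) were higher and 958 (7.34%) lower with RvE1. The unadjusted count was 991 with the block and 2875 with library quality weights. Of the 1670 genes, 31 also had an unadjusted p under 0.05 for the interaction. The average picks out genes that move alike, so their common sign is not counted as evidence.

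Nmrk1, nicotinamide riboside kinase, which feeds nicotinamide riboside into NAD synthesis, fell with RvE1. It lies on chromosome 19 from 18631950 to 18652428 (GRCm38.p6, plus strand). Its normalized counts were 1054, 1151 and 1579 in WT obese and 782, 813 and 859.9 in WT obese+RvE1 liver, with no overlap. In KO liver they were 873, 1169 and 1469.8 with vehicle and 499, 705 and 1054 with RvE1, where 4 of 7 RvE1 mice were below every vehicle mouse. The average effect was -0.61 log2 (SE 0.10, limma adjusted p = 0.0175), with -0.57 in WT and -0.65 in KO liver and an interaction of -0.08 (-0.49 to 0.33).

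In the 3 KO mice of number 23, the only number with both treatments, Nmrk1 was 1150 with vehicle and 939 and 591 with RvE1. In the other KO mice it also varied by number. With vehicle it was 873 to 1169 in number 10 and 1392 to 1470 in number 31. With RvE1 it was 960 to 1054 in number 15 and 499 to 705 in number 12. In settings added after the data had been seen, no gene was called without number 12, 27, 31 or 7. Removal of any 1 mouse left the limma adjusted p of Nmrk1 between 0.00391 and 0.0485. With the number fitted as a random block, the limma adjusted p was 0.242 and no gene was called, and the whole count of called genes was 27 in edgeR, 270 in DESeq2 and 1061 in limma with library quality weights. Nmrk1 was among the genes called in each of those 3.

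The other leading genes with a negative average effect had adjusted p-values of at least 0.131 in limma. Smad9 had an average of -1.05 log2 (SE 0.21) and Zfp445, a zinc finger protein of genomic imprinting, one of -0.62 (SE 0.12). Zfp445 also had an unadjusted interaction p of 0.0495 (0.126 with the block), from effects of -0.36 in WT and -0.88 in KO liver. Tet2, which oxidises 5-methylcytosine in DNA, had effects of -0.44 and -0.47, and its counts ran from 395 to 841 and 359 to 548 in WT and from 472 to 867 and 380.3 to 559 in KO liver, vehicle first. Morc3, a chromatin ATPase that silences repeats, had effects of -0.32 and -0.36, and 5 WT and 6 KO RvE1 mice were below every vehicle mouse. Dync2h1, the motor of transport within cilia, had effects of -0.47 and -0.53. Pwwp2a, a reader of histone variant H2A.Z, had -0.41 and -0.25.

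Genes with a positive average effect had adjusted p-values of at least 0.164 in limma. Slc27a4, the fatty acid transport protein FATP4, ran from 815 to 1076 and from 1046 to 1223 in WT liver and from 722 to 1127 and from 1026 to 1188 in KO liver, vehicle first. 6 of 7 WT RvE1 mice were above every WT vehicle mouse, and 1 of 7 in KO liver. Its effects were 0.28 and 0.22 log2.

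Psmd3, a subunit of the proteasome lid, had effects of 0.24 and 0.20 log2, and Sphk2, a sphingosine kinase, 0.30 and 0.38. Mfsd5, a molybdate transporter, ran from 398 to 529 with vehicle and from 540.0 to 608 with RvE1 in WT liver, with no overlap, and from 389 to 564 and from 460.2 to 621 in KO liver, where the groups overlapped. Its effects were 0.32 and 0.19 log2. Each of these genes had an interaction interval that included 0.

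**Figure D4:**
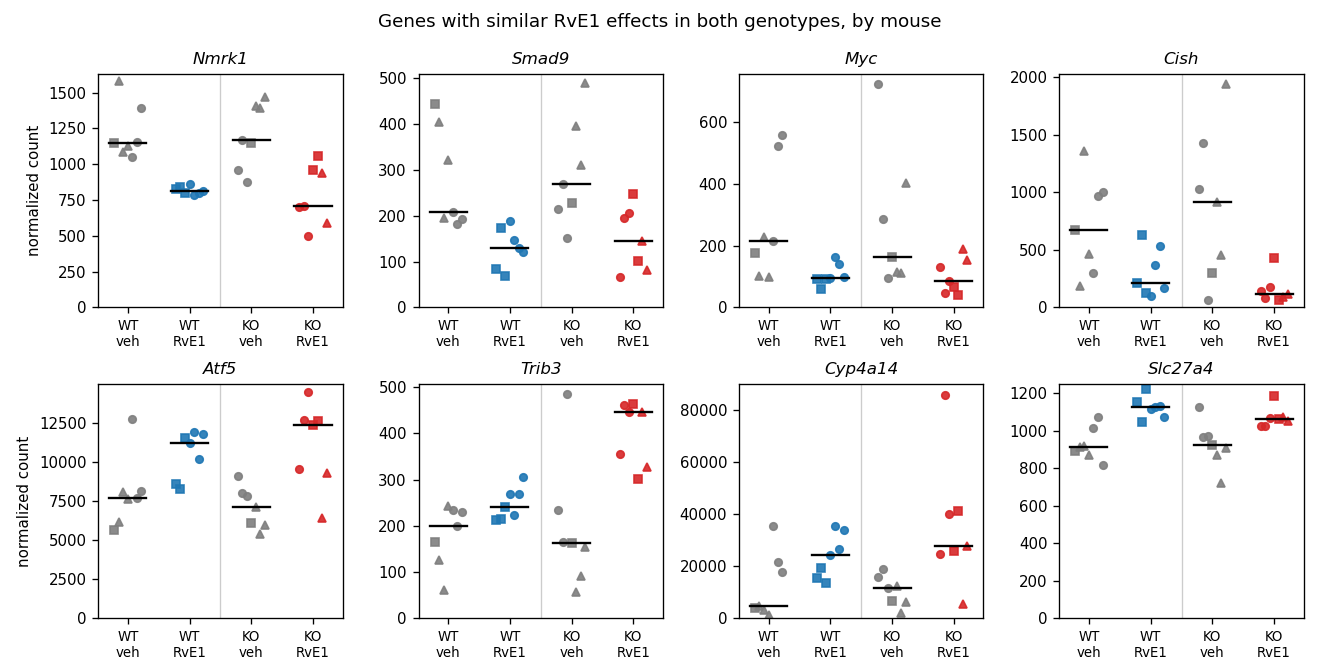
Normalized counts of 8 genes with RvE1 effects of the same sign in both genotypes, 1 point per mouse. Vehicle mice are grey, WT RvE1 mice blue and KO RvE1 mice red, with a bar at the median of 7 mice. Point shapes mark the identifier number within a group. The WT groups of Nmrk1 do not overlap, while the WT vehicle mice of Cyp4a14 fall into a low and a high set.

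Lists of pathway genes were then read by their counts and medians, beside all genes tested. The 24 pathway lists held 673 tested genes, of which 12 (1.78%) had an unadjusted p under 0.05 for the interaction and 95 (14.1%) for the average effect, beside 2.38% and 12.8% of all genes. With the block, 3 genes, all lower, were under 0.05 for the interaction, and 31 higher and 41 lower for the average effect. Of all 13059 genes, 108 were under 0.05 with the block for the interaction and 991 for the average effect. No member of any list was called for either effect by limma. The median effect over all genes was 0.0047 log2 in WT and -0.0086 in KO liver.

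The integrated stress response list had like medians in both genotypes. Of its 23 tested genes, 8 had an unadjusted p under 0.05 for the average effect, all positive, beside 5.45% of all genes, and 8 with the identifier number as a block. Its median effect was 0.14 log2 in WT and 0.15 in KO liver. Atf5, a transcription factor translated under stress, had normalized counts of 5668, 7668 and 12774 in WT obese and 8252, 11246 and 11896 in WT obese+RvE1 liver. In KO liver they were 5404, 7126 and 9125 with vehicle and 6413, 12339 and 14510.0 with RvE1, and 6 of 7 RvE1 mice were above every vehicle mouse. Its effects were 0.42 and 0.62 log2 (interaction 0.20, -0.29 to 0.69).

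Trib3, a pseudokinase that restrains AKT and is a target of ATF4, ran from 61.6 to 243 (median 199) in WT obese and from 213 to 305 (median 241) in WT obese+RvE1 liver. Among KO livers it ran from 56.9 to 484 (median 162) with vehicle and from 302 to 464 (median 446) with RvE1. The groups overlapped in both genotypes. Its effects were 0.57 and 1.32 log2 (interaction 0.75, -0.15 to 1.65). Other members with positive averages were Gdf15, a stress hormone, with 0.99 and 1.41, Sesn2, which restrains mTORC1, with 0.31 and 0.44, Ddit3, the factor CHOP, with 0.43 and 0.29, and Slc3a2, an amino acid transporter chain, with 0.28 and 0.15. Fgf21, a member of this list, was the only one of the 23 with an unadjusted interaction p under 0.05, and with the block none was.

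The growth hormone and STAT5 list had negative medians in both genotypes. Of 24 tested genes, 9 had an unadjusted p under 0.05 for the average effect, all negative, beside 7.34% of all genes, and 4 with the block. The median was -0.20 log2 in WT and -0.45 in KO liver. None of the 24 had an unadjusted interaction p under 0.05, and the median interaction of -0.22 turned to 0.012 with library quality weights. Socs2, a feedback inhibitor of growth hormone signalling, ran from 389.8 to 1264 (median 592) in WT obese and from 255 to 1459.7 (median 318) in WT obese+RvE1 liver. In KO liver it ran from 354 to 1438 (median 993) with vehicle and from 99.8 to 1005 (median 213) with RvE1. 6 WT and 5 KO RvE1 mice were below every vehicle mouse of their genotype, and 1 WT RvE1 mouse was above all.

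Its effects were -0.74 and -1.63 log2 (interaction -0.89, -2.13 to 0.36). Onecut1, a hepatocyte transcription factor of growth hormone action, had effects of -1.41 and -1.87, and Igf1, the growth factor that liver releases under growth hormone, -0.26 and -0.47. Socs3, an inhibitor of interleukin-6 signalling, had -0.57 and -0.87, and Ghr, the growth hormone receptor, -0.11 and -0.48. Cish, described above, belongs to the same list, with counts of 188, 671 and 1359.9 in WT obese and 103, 212 and 627 in WT obese+RvE1 liver. In KO liver they were 64.7, 913 and 1939.5 with vehicle and 60.9, 120.5 and 428 with RvE1, and the groups overlapped in both genotypes.

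Promoters are shown for the called gene and for 3 genes of these lists, because stress response genes are known to carry an ATF4 and C/EBP composite element and Cish to carry STAT sites. They are RefSeq sequences of GRCm38.p6 (mm10), 250 bases before to 50 after the start, 5′ to 3′ on the gene's strand. Capitals mark matches to TGATGNAA or TTCNNNGAA on either strand. TGATGNAA stands for the ATF4 and C/EBP composite and TTCNNNGAA for the STAT palindrome. Nmrk1 lies at chr19:18631766-18632065 (plus strand), Trib3 at chr2:152344011-152344310 (minus), Fgf21 at chr7:45615441-45615740 (minus) and Cish at chr9:107296409-107296708 (plus).
Nmrk1: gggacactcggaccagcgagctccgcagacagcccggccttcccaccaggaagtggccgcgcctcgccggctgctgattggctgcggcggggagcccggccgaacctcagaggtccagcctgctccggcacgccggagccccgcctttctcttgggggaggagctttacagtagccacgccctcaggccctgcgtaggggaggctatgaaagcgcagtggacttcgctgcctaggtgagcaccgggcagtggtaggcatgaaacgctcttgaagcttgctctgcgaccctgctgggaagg
Trib3: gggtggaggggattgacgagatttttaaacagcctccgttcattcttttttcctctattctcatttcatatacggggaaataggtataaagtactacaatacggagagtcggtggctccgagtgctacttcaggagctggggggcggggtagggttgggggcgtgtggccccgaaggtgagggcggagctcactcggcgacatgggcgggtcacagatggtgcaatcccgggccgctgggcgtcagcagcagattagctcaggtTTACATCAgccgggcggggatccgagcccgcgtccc
Fgf21: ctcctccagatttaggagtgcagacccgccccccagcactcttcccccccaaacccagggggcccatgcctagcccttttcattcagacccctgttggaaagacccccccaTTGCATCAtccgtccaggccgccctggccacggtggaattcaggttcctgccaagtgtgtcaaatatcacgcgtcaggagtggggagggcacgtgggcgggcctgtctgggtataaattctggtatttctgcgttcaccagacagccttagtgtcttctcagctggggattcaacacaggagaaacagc
Cish: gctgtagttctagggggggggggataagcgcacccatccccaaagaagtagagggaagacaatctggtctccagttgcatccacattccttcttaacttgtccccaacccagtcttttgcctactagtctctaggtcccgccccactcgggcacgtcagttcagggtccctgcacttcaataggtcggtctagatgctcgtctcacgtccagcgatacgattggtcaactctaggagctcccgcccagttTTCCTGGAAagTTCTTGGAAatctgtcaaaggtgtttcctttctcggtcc

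The Trib3 promoter held 1 match to TGATGNAA on the other strand, 14 to 21 bases after the start, and the Fgf21 promoter 1 on the other strand, from -139 to -132. The Cish promoter held 2 matches to TTCNNNGAA, at 0 to 8 and 11 to 19 from the start, and the Nmrk1 window held neither motif. Windows of Atf5, of the stress list, and of Smad9 were also scanned. They held neither motif and are not shown. Of 32851 promoters of the same length, 3.97% held TGATGNAA and 8.3% held TTCNNNGAA. Among the genes of the integrated stress response list, 8 of 23 (34.8%) held TGATGNAA in a promoter, against 0 of 21 of the growth hormone list. TTCNNNGAA was in 5 of 21 (23.8%) of the growth hormone list and 3 of 23 (13%) of the stress list. A gene with several starts was counted once and had more windows to match than 1 promoter, and a match describes letters and not a bound site. The lists were written from general knowledge, and the stress list holds known ATF4 targets such as Trib3. Its share of TGATGNAA therefore follows in part from how the list was made and is not counted as evidence.

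Genes of fatty acid oxidation and targets of the nuclear receptor PPARA gave positive medians. Of 30 tested genes of fatty acid oxidation, ketogenesis and PPARA targets, 14 (46.7%) had an unadjusted p under 0.05 for the average effect. All 14 were positive, beside 5.45% of all genes, and 9 were under 0.05 with the block. The median was 0.23 log2 in WT and 0.09 in KO liver, with 29 and 19 of 30 genes positive. In WT liver 12 genes had an unadjusted limma p under 0.05, and in KO liver 2, all positive. The shares of all genes were 2.02% and 4.73%. The median interaction was -0.12, and -0.051 with library quality weights. Of the 30 interactions 27 were negative, beside 6956 of 13059 over all genes, and no test was run on the list as such. Cyp4a14, a fatty acid omega-hydroxylase whose reads may be divided among close relatives and which is uncertain for that reason, ran from 1274 to 35426 (median 4682) in WT obese and from 13591 to 35483 (median 24392) in WT obese+RvE1 liver.

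In WT obese liver Cyp4a14 was 17940 to 35430 in the 3 mice of number 6 and 1274 to 4682 in the other 4, so the WT vehicle mice split by number. The KO livers ranged from 2145 to 19105 (median 11785) with vehicle and from 5655 to 85683 (median 27952) with RvE1, and 6 of 7 RvE1 mice were above every vehicle mouse. Its effects were 1.67 and 1.69 log2. Plin2, which coats lipid droplets, had effects of 0.57 and 0.26, Vnn1, a pantetheinase, 0.83 and 0.39, and Crat, carnitine acetyltransferase, 0.66 and 0.52. Ppara itself had 0.17 in WT and -0.28 in KO liver, an interaction of -0.45 (-0.85 to -0.04, unadjusted p = 0.0309, and 0.117 with the block).

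Lipogenesis and glucose genes had lower medians in KO than in WT liver. In the de novo lipogenesis list, 4 of 24 genes (16.7%) had an unadjusted p under 0.05 for the average effect, all negative, beside 7.34% of all genes. None of the 24 was under 0.05 for the interaction. The median was -0.03 log2 in WT liver, with 12 genes higher and 12 lower, and -0.35 in KO liver, with 3 higher and 21 lower. The median interaction was -0.43, the lowest of the 24 pathway lists, with 19 of 24 genes negative, and -0.30 with the block. No test was run on the list as such. Thrsp, a nuclear protein that promotes lipogenesis, ran from 6362 to 50999 (median 26626) in WT obese and from 2938 to 34308 (median 7348) in WT obese+RvE1 liver. In KO liver it ran from 7576 to 48157 (median 37751) with vehicle and from 1158 to 55708 (median 5423) with RvE1.

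6 KO RvE1 mice were below, and 1 above, every KO vehicle mouse. Thrsp also split by number, at 6362 to 12310 for number 6 among WT vehicle mice and 7576 to 11150 for number 10 among KO vehicle mice, while the other vehicle mice had at least 26626. Its interaction was -1.12 log2 (-3.14 to 0.90). Elovl6, a fatty acid elongase, had effects of -0.36 and -1.14, Acly, which makes cytosolic acetyl-CoA, -0.34 and -0.87, and Lpin1, a phosphatidate phosphatase, -0.72 and -1.76.

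In the gluconeogenesis, glycolysis and glycogen list, 5 of 24 genes (20.8%) had an unadjusted p under 0.05 for the average effect. All 5 were negative, beside 7.34% of all genes, and the list medians were -0.08 in WT and -0.29 in KO liver. Mlxipl, the glucose-sensing factor ChREBP, had effects of -0.28 and -0.43 log2, Gys2, liver glycogen synthase, -0.30 and -0.45, and Pfkfb3, which raises the activator of glycolysis, -0.47 and -1.38. None of the list had an unadjusted interaction p under 0.05. In the insulin signalling list the medians were -0.02 and -0.09. Of its 30 genes, 3 (10.0%) had an unadjusted p under 0.05 for the average effect, beside 12.8% of all genes. The cholesterol synthesis list had none of 24, with medians of -0.13 and -0.11.

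The circadian clock list had 6 of 19 genes (31.6%) at an unadjusted p under 0.05 for the average effect, beside 12.8% of all genes. Of these 6, 1 was positive and 5 were negative. Nr1d1, the repressor REV-ERBα, ran from 642 to 1601 (median 899) and from 898 to 1675 (median 1348) in WT liver and from 363 to 1733 (median 969.8) and from 902 to 2120.2 (median 1581) in KO liver, vehicle first. Its effects were 0.46 and 0.90 log2. The clock repressors Per2 and Cry1 had -0.26 and -0.60, and -0.26 and -0.88, in WT and KO liver. The hour of harvest was not in the labels.

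Immune and secretory lists were read in the same way. The interferon-stimulated list had 5 of 34 genes (14.7%) at an unadjusted p under 0.05 for the average effect (3 with the block). All 5 were positive, beside 5.45% of all genes, and the list medians were 0.08 in WT and 0.13 in KO liver. Cmpk2, a mitochondrial nucleotide kinase, had effects of 0.58 and 0.51 log2. The complement and coagulation list had 6 of 37 (16.2%), all negative (3 with the block), beside 7.34% of all genes. Its median average effect of -0.059 turned to 0.0052 with library quality weights. C9, the pore-forming unit of the membrane attack complex, had effects of -0.58 and -0.18. The chemokine and cytokine list had 1 of 24 (4.17%), beside 12.8% of all genes.

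In the acute phase list, 10 of 29 genes (34.5%) had effects of the same sign in the genotypes beside 62.9% of all genes. Its median was 0.15 log2 in WT and -0.15 in KO liver, and the median interaction was -0.33. Hepatocyte markers had negative interactions for 9 of 9 genes, with a median of -0.19 that turned to 0.11 with library quality weights, and their part in the acute phase values was not tested. Steap4, a metalloreductase of the inflammatory response, had effects of 0.04 and -0.87 and an unadjusted limma interaction p of 0.0351. Of the 29 genes, 2 (6.9%) were under 0.05 for the interaction (1 with the block), beside 2.38% of all genes. No test was run on the list as such, and its genes share the same 28 livers.

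The respiratory chain list of 43 nuclear-encoded genes had medians of 0.02 in WT and -0.15 in KO liver. Uqcrb, a subunit of complex III, had effects of 0.32 and -0.59 log2 (interaction -0.91, -1.61 to -0.22). Cox7c, a subunit of cytochrome c oxidase, had 0.22 and -0.36 (interaction -0.58, unadjusted p = 0.0312). The median interaction of -0.096 turned to 0.081 with library quality weights. For the 66 cytosolic ribosomal proteins, whose reads may be divided among pseudogenes, the medians were -0.04 and -0.19. Of these genes, 8 (12.1%) had an unadjusted p under 0.05 for the average effect, all negative, beside 7.34% of all genes. The median interaction of -0.12 turned to 0.057 with the weights. The list of MYC and nucleolar ribosome synthesis genes had 4 of 30 (13.3%) for the average effect, 1 positive and 3 negative, beside 12.8% of all genes. Its medians were -0.01 and -0.14.

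The SMAD list around Smad9 had 3 of 37 genes (8.11%) at an unadjusted p under 0.05 for the average effect. All 3 were negative, beside 7.34% of all genes, and the list medians were -0.04 and -0.10. Hamp, the iron hormone that SMAD signalling induces, had effects of -0.85 and -0.93 log2. In the bile acid list 4 of 24 (16.7%) were under 0.05, 3 positive and 1 negative, beside 12.8% of all genes. Nr0b2, the repressor SHP, had effects of 0.39 and 0.83, and Cyp7a1, the rate-limiting enzyme of bile acid synthesis, of -0.79 and -0.39. The lists of p53 targets had 5 of 25 (20.0%), of cell cycle genes 3 of 20 (15.0%) and of cytochrome P450 genes 3 of 32 (9.38%, 6 with the block). The list of endoplasmic reticulum folding had 2 of 24 (8.33%, 0 with the block), of immediate early genes 2 of 22 (9.09%) and of NRF2 targets 1 of 26 (3.85%, 2 with the block). The share of all genes was 12.8%, above those of the P450, folding, immediate early and NRF2 lists. In the P450 list the median interaction was -0.245 log2, with 25 of 32 genes negative, beside 6956 of 13059 of all genes. That median was -0.31 with the block and -0.021 with library quality weights. None of the 32 had an unadjusted interaction p under 0.05 in limma.

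**Figure D5:**
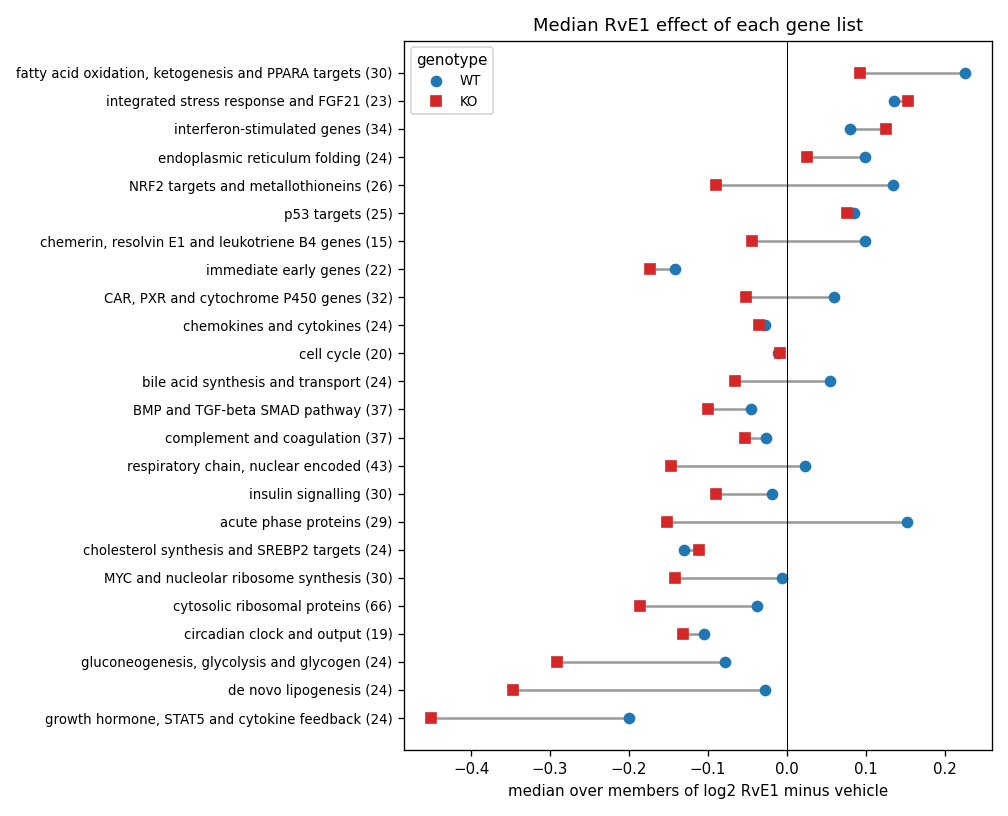
Median log2 RvE1 effect over the tested members of each of 24 gene lists in WT liver (blue circles) and KO liver (red squares), with the number of members tested in brackets. The growth hormone list lies lowest in both genotypes (-0.20 and -0.45), the fatty acid oxidation list is highest in WT liver (0.23), and the acute phase list is on opposite sides of 0.

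Markers of non-parenchymal cells were read beside these values. The 5 tested B cell markers, of 10 on the list, had a median effect of 0.26 log2 in WT and 0.88 in KO liver. Their summed normalized count was 21.2 to 92.5 in KO obese and 47.9 to 217 in KO obese+RvE1 liver, over the 6 markers listed in the KO table, and 40.6 to 147 and 28.2 to 235 over 5 in WT liver. Ighm, Igkc, Jchain and Pax5 were in neither table, and no marker that was listed was at 0 throughout a group. The part of B cells in the other values was not tested.

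The 4 tested neutrophil and monocyte markers, of 10, had medians of -0.15 in WT and -1.10 in KO liver. Their summed count ran from 206 to 1239 in KO obese and from 134 to 1103 in KO obese+RvE1 liver over the 8 listed markers, which overlapped, and from 149 to 328 and 110.0 to 257 over the 4 listed in WT liver. Ly6g and Mpo were in neither table. The part of these cells in the Cxcl1 and acute phase values was not tested. Kupffer cell and macrophage markers, 11 of 12 listed, summed to 5943 to 9699 and 5262 to 14750 in WT liver and to 6267 to 8824 and 5341 to 12880 in KO liver, vehicle first, and none of the 11 had an unadjusted p under 0.05 for either effect. Their effects were positive for 11 of 11 in WT liver (median 0.32 log2) and for 7 of 11 in KO liver (median 0.10), and all 11 interactions were negative (median -0.19). The part of these cells in the Clec4n and immune values was not tested. Of 12 T and NK cell markers 1 was tested, which leaves those cells largely unmeasured in the interaction.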

How the data were processed

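Whole livers of 42 mice were sequenced with a stranded kit (the labels name polyA RNA and also a total RNA library), and the 28 livers of obese mice in 4 groups of 7 were used. The submitters' processing notes name FastQC, Bowtie2, Subread featureCounts, DESeq2 and mm10, and the tool versions, the annotation release and the strand setting of the counting were not given in the sources used here. The deposited values are a signal per gene, namely read counts that the authors divided by DESeq2 size factors, with 1 table per genotype and therefore 2 separate normalizations. The tables list 13085 genes in WT and 14460 in KO, with date-like names (20 and 21) left out of the tests. Columns of the authors' own fold changes and p-values were not used.

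All values (100% in the library with the fewest) were whole multiples of 1 read within 0.1 reads, so whole reads were recovered, giving 15957561 to 43745360 per library. limma 3.58.1 (R 4.3.3, lmFit and eBayes with trend) was fitted on log2(normalized count + 1) over the 28 mice with 1 mean per group, for genes with a mean of at least 5 in each table, and the interaction, the average effect and both single effects were taken as contrasts. On this scale the folds of genes with low counts come out too small. Calls used a Benjamini-Hochberg adjusted p under 0.1 over all 13059 genes, with no fold threshold. Replicates are separate mice, 1 library each. Alternatives were other pseudocounts, filters, scalings and thresholds, library quality weights, the identifier number as a random block, each mouse left out, and edgeR 4.0.16 and DESeq2 1.42.0 on the recovered whole reads (27 and 270 genes called for the average effect). Steps were tested on simulated data.

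Genes were named by rule: Cmklr1 and Wscd2, the 10 smallest p-values in each direction for the interaction and for same-sign average effects, genes the study names for RvE1, and in each list the member with the smallest p for each effect. Genes named outside this rule, among them further list members and Sectm1a, were chosen after their values were seen. The members and lists were chosen with earlier results of these data known. Gene coordinates are from the GENCODE annotation of GRCm38, and promoters are from RefSeq GRCm38.p6. Some genes that met the rule are not reported here.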

Additional observations from a re-analysis of the deposited data

Results flagged for a closer look

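Among 364 sets of 7 mice (the named genes in each group), 19 held 1 mouse set apart from the other 6 by a gap above Dixon's critical share of the range, in 16 genes, where chance alone gives about 1 set in 20. In WT obese liver these were Slfn1 at 9.85 in mouse 27RL, Foxq1 at 441 and Ltb4r1 at 60.2 in mouse 27-2L, and Rpl9 at 134 in mouse 27-2R. In WT obese+RvE1 liver, mouse 30R had 3 of them, with 31.0 for the gene model 1700056E22Rik, 1459.7 for Socs2 and 1152 for Rrs1, a ribosome assembly factor. Manf, a stress-induced secreted protein, was 2096 in mouse 7RL and Ndufs1, a complex I subunit, 1305 in mouse 7R.

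In KO obese liver, Wscd2 was 3.97 and Lta4h 210.5 in mouse 31L, Fgf21 was 98.5 in mouse 31N and Foxq1 was 221 in mouse 10RL. In KO obese+RvE1 liver, Wscd2 was 5.41 and Alox5ap 9.47 in mouse 15R, and Slc27a4 was 1188 in mouse 15-2L. Mouse 23-2L had 3 such values, Morc3 at 658, Ndufs1 at 2028 and Rrm2, a subunit of ribonucleotide reductase, at 565. All values are normalized counts.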

How the results depend on the processing

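The interaction count of 0 was also 0 under every other pseudocount, filter, scaling, weighting, tool and threshold, with the block and without single mice, and, in settings chosen after seeing the data, 2 without number 10 and 1 without number 7. The average effect count of 1 was 0 when the identifier number was a random block, 27 in edgeR, 270 in DESeq2 (which left 5823 adjusted p-values empty) and 1061 with library quality weights, and 1 to 263 without single mice (263 without KO obese+RvE1 mouse 23-2L, 120 without KO obese mouse 10-2L, 48 without WT obese mouse 6L). Without whole numbers it was 783 (10), 433 (6), 413 (30), 317 (23) and 0 (12, 27, 31 and 7). The count in WT liver, 0, was 9 without number 6 and 1 without number 7. The count in KO liver, 0, was 614 with weights, 10 in DESeq2, 0 to 6 without single mice, 613 without number 10, 3 without 23 and 1 without 15 or 30. The causes were not tested. The interaction of Smad9 (0.05) was -0.029 with weights, -0.26, -0.043, -0.079, -0.080 and -0.18 without numbers 10, 15, 22, 27 and 30, and -0.098 to 0.21 without single mice. The interaction of Myc (-0.12) was 0.047 with the block, 0.17, 0.18, 0.44 and 0.23 without numbers 10, 15, 27 and 7, and -0.34 to 0.18 without single mice. The interaction of Cxcl1 (-0.75) was 0.14 with weights and 0.17 and 0.26 without numbers 31 and 6. The average effect of Lta4h (0.01) was -0.025 with weights, -0.016, -0.012 and -0.0029 without numbers 12, 22 and 31, and -0.012 to 0.048 without single mice. No paired analysis was possible because no mouse identifier is shared between groups. A median interaction interval of 0.48 log2 to either side limits what these libraries could show.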
